A study of Mus musculus with 24 samples.

Results

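IRE1α is a sensor in the membrane of the endoplasmic reticulum (ER), encoded by Ern1. When unfolded proteins accumulate it splices the Xbp1 mRNA, and the spliced form is translated into XBP1s, a transcription factor that drives genes of protein translocation, folding, glycosylation and ER-associated degradation. Lipopolysaccharide (LPS), a component of the outer membrane of Gram-negative bacteria, is bound by Toll-like receptor 4 with CD14 and MD-2. It induces cytokines, chemokines and interferon-stimulated genes in dendritic cells (DCs) through MyD88 and NF-κB and through TRIF and interferon regulatory factors, and Toll-like receptors can also engage IRE1α in myeloid cells.

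The question was whether the response of bone marrow-derived mouse DCs to LPS depends on the IRE1 genotype. Messenger RNA was sequenced from 24 samples of DCs, of IRE1 wild type (WT) or knockout (KO) genotype, which were untreated or received zymosan or LPS, with 4 samples per group. The comparison described here uses 16 of the 24 samples, namely untreated WT, WT with LPS, untreated KO and KO with LPS, and covers all 14188 genes with enough counts to be tested. These 4 groups and the contrast between them were set by genotype and treatment labels alone. Genes entered the test by a filter on their counts. The gene lists, and most genes named below, were chosen with results of these data known. For each gene the interaction is the log2 change with LPS in KO minus the log2 change with LPS in WT. An interaction below 0 means that the level with LPS, relative to untreated, was lower in KO than in WT, and one above 0 that it was higher. Dose and duration of LPS, the allele, the driver of the deletion, strain, sex and age of the mice, and whether the 4 replicates of a group came from separate mice or cultures are not given in the sources used here, so p-values measure the spread between these samples, which may be technical.

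Total counts of the 16 libraries ranged from 36778141 to 46927434. Levels are given below as CPM, the usual scaling of counts to library size after TMM normalization, which are not corrected for gene length. Interactions and changes are on the log2 scale with their standard error after the ±. The targeted gene, Ern1, measured 42.3, 43.3, 40.5 and 40.2 CPM in untreated WT samples and 29.9, 28, 29 and 27.1 CPM in WT samples with LPS. In KO-labelled samples Ern1 stood at 53.3, 54.6, 48.2 and 49.6 CPM untreated and 41.8, 41.4, 37.6 and 36.6 CPM with LPS. Ern1 mRNA was thus not lower under the KO label, and a count over the whole gene does not show whether part of it was removed. Samples are therefore called WT and KO-labelled throughout. Conventional DC markers were present at a summed 2185 to 2500 CPM in all 16 samples, and macrophage markers at 16749 to 20698 CPM. Single genes dominated these sums. Over the 16 libraries Lyz2 held 11046459 counts in the macrophage list, and Itgax 799348 and Sirpa 343195 in the DC list. Other DC markers ranged from 197381 counts for Irf4 and 11952 for Zbtb46 down to 976 for Flt3, 828 for Xcr1 and 84 for Cd209a. The sums therefore do not give the share of either cell type. In bulk samples fewer cells of a type and less RNA per cell cannot be told apart. Within each group replicates 1 and 2 resembled each other, as did replicates 3 and 4: the chi-square per gene between libraries of one such pair was 1.87 to 7.62, against 6.26 to 22.9 between libraries of different pairs. For this reason the interaction was also computed in each pair alone and with the counts of each pair summed into 1 sample.

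LPS changed most of the transcriptome in both genotypes, and the size of the change depended on the genotype label for about 1 gene in every 10 tested. With edgeR's quasi-likelihood test and an adjusted p under 0.05, the interaction was above 0 for 654 genes and below 0 for 828, which is 10.4% of all genes tested (4.61% above and 5.84% below 0). Of these, 28 were above and 41 below by more than 2-fold. The median over all genes was 0.00, with 5% of genes below -0.53 and 5% above 0.57. The underlying response to LPS passed the test for 5100 genes that rose and 5629 that fell in WT (75.6%), and for 4886 that rose and 5300 that fell in KO-labelled samples (71.8%). Changes of more than 2-fold were called for 1766 higher and 1953 lower genes in WT and for 1471 higher and 1538 lower genes in KO-labelled samples. KO-labelled and WT samples differed for 9.95% of genes without treatment (4.31% higher and 5.64% lower in KO-labelled) and for 33.9% with LPS. All of these comparisons draw on the same 16 samples as the interaction, so they are set beside it and give it no separate support. With the replicate pairs summed, which leaves 2 samples per group, only 5 of the 1482 calls passed: Commd10 and Myc above 0, and Nppc, Il18bp and Cyp26b1 below 0. Without WT replicate 4 with LPS the counts were 434 and 565.

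**Figure D1:**
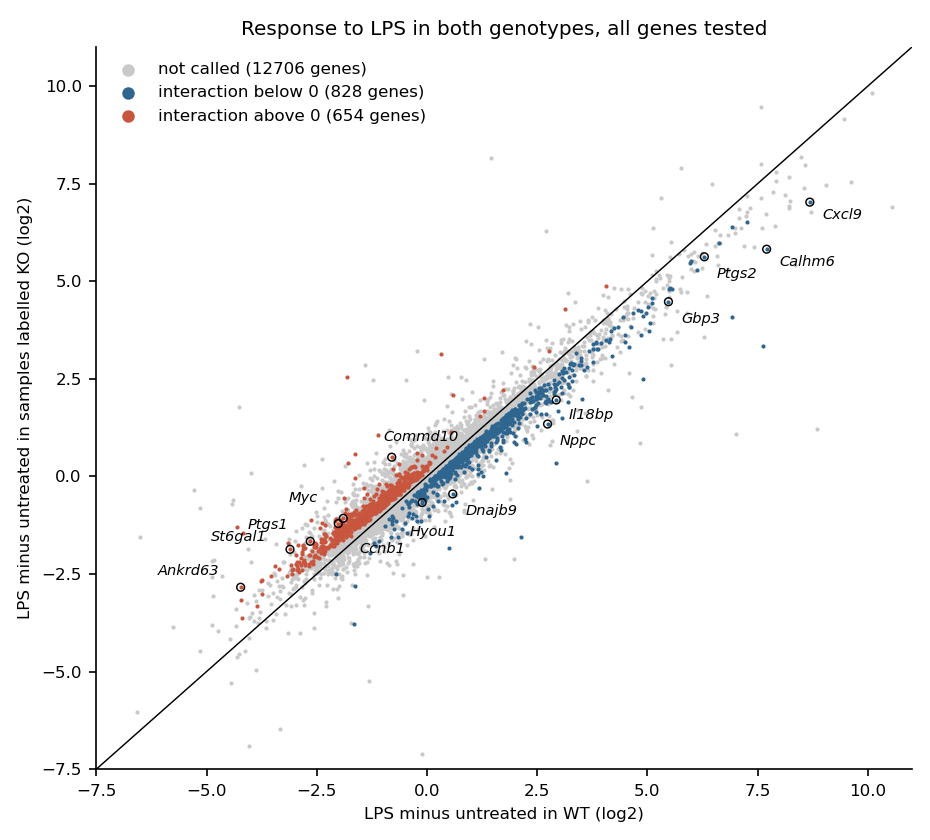
Each point is 1 of the 14188 genes tested, with its log2 change with LPS in WT on the horizontal axis and in KO-labelled samples on the vertical axis (n = 4 samples per group), and the line marks equal changes; both axes use the samples of the interaction, so the placement is no separate evidence. Blue points are the 828 genes with an interaction below 0 and red points the 654 with an interaction above 0; Cxcl9, Calhm6, Ptgs2 and Gbp3 lie below the line at the induced end, and Ankrd63, St6gal1, Ptgs1 and Myc above it at the repressed end (black circles mark labelled genes).

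ER genes that XBP1s is known to drive mostly had interactions below 0, and 3 of them (Creld2, Dnajb9 and Hyou1) were among the 10 genes with the smallest p. Of 45 tested genes in the list of XBP1s targets of translocation, folding and degradation, 26 had an interaction below 0 and none above (median -0.22). Among all genes the corresponding share below 0 was 5.84%. The list was put together with results of these data known, among them its untreated difference, a median of -0.48 for KO-labelled minus WT. The median response of the list to LPS was 0.13 in WT and -0.06 in KO-labelled samples, and the median genotype difference with LPS was -0.69. DESeq2 called 28 members lower and the summed pairs called none, with the lowest adjusted p at 0.0775, and the count was 18 to 26 when single libraries were left out.

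The promoters of Creld2 and Sdf2l1 are shown because both genes are called members that belong to the XBP1s list and have the sequence CCACG, the part of the ER stress response element that XBP1s can contact, before their start. Ptgs2 is shown as the prostaglandin gene of the study, and Gbp3 as the most affected guanylate-binding protein gene, with the core of the interferon-stimulated response element (GAAA, any 2 bases and another GAAA). The sequences are the 250 bases before the RefSeq start on build GRCm38.p6 (chr15:88819396-88819645, plus strand, for Creld2; chr16:17132384-17132633, minus strand, for Sdf2l1; chr1:150099781-150100030, plus strand, for Ptgs2; chr3:142559794-142560043, plus strand, for Gbp3), written 5′ to 3′ along the gene, with each match to either motif on either strand in capitals. In Gbp3 matches overlap and merge into 1 run of capitals. A further RefSeq start of Gbp3 (window chr3:142560106-142560355, not shown) has no match to either motif.
Creld2: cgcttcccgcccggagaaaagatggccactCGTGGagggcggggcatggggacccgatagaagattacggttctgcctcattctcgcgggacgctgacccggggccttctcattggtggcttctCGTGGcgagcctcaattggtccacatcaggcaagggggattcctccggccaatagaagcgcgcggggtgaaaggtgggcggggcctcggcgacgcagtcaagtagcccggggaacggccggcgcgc
Sdf2l1: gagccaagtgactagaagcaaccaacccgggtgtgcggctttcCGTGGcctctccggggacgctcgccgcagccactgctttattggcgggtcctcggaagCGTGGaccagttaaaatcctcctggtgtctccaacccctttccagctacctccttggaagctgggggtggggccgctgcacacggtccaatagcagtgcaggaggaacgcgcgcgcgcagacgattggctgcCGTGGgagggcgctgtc
Ptgs2: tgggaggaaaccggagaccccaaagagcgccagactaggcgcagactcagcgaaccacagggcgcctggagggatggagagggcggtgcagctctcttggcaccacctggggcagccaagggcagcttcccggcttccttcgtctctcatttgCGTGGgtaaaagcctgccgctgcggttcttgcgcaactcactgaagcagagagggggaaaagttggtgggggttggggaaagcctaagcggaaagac
Gbp3: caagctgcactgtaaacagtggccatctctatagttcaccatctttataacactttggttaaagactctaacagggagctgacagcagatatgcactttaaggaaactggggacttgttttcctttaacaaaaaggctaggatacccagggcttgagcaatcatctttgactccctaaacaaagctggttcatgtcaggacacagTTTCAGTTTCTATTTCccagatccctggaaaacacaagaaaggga

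Over windows of 300 bases (250 before and 50 after the start) of 10444 tested genes, CCACG or its reverse complement CGTGG was found in 45.5% of 13286 windows, in 76.3% of the 38 windows of the XBP1s list and in 80% of the 20 windows of its members called below 0. It was found in 43.5% of windows of all genes called below 0 and in 48.6% of those called above 0. The interferon core was in 3.32% of all windows, 5.29% of windows of genes called below 0 and 2.64% of those called above 0. The XBP1 core GACGTG, which can share letters with CGTGG, was in 9.13% of all windows, 28.9% of windows of the XBP1s list and 20% of those of its called members. Genes called below 0 also held other searched motifs more often than all genes: 3.41% against 1.7% for the kappaB form (GGG, any 2 bases and TTTCC), 7.76% against 5.46% for AP-1 (TGANTCA), 3.41% against 2.33% for the ATF4 form (TGATG, any base and AA) and 10.4% against 9.13% for GACGTG. These shares were not tested. A match is a description of the letters and does not show binding.

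Dnajb9, an ER-resident co-chaperone of BiP (ENSMUSG00000014905, chromosome 12, 44205559 to 44210326, minus strand), measured 23.8, 23.5, 26.2 and 24.7 CPM in untreated WT samples and 35.9, 34.2, 40.3 and 36.3 CPM in WT samples with LPS. In KO-labelled samples Dnajb9 stood at 8.11, 7.9, 11 and 8.96 CPM untreated and 6.24, 6.49, 6.58 and 6.92 CPM with LPS. All 4 WT samples with LPS were above the untreated WT samples, all 4 KO-labelled samples with LPS were below the untreated ones, and no 2 groups overlapped. The log2 change with LPS was 0.58 ± 0.08 in WT and -0.45 ± 0.09 in KO-labelled samples, which gave an interaction of -1.03 ± 0.12 (edgeR adjusted p = 2.08e-05), with -0.90 in replicates 1 and 2 and -1.15 in replicates 3 and 4. With LPS the gene was 5.59-fold lower in KO-labelled than in WT samples.

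Creld2, a disulfide isomerase-like ER protein, measured 55.2, 56.9, 60.5 and 61.4 CPM in untreated WT samples and 73.1, 74.9, 71.8 and 76.6 CPM in WT samples with LPS. In KO-labelled samples Creld2 stood at 30.6, 31.8, 30.9 and 29.9 CPM untreated and 26.4, 26.6, 26.3 and 27.6 CPM with LPS. No 2 groups overlapped, and Creld2 rose with LPS in WT and fell in KO-labelled samples (0.34 ± 0.04 in WT and -0.20 ± 0.04 in KO-labelled samples; interaction -0.55 ± 0.06, edgeR adjusted p = 5.13e-06). Hyou1, an ER chaperone of the Hsp110 family, measured 174, 168, 185 and 187 CPM in untreated WT samples and 162, 167, 164 and 167 CPM in WT samples with LPS. In KO-labelled samples Hyou1 stood at 91.3, 89.3, 92.1 and 103 CPM untreated and 60.2, 60, 57.1 and 58.3 CPM with LPS. No 2 groups overlapped, although the WT groups were close, and every KO-labelled sample was below every WT sample. Hyou1 fell by 0.11 in WT and by 0.67 in KO-labelled samples on the log2 scale (interaction -0.56 ± 0.07, edgeR adjusted p = 2.16e-05). Sdf2l1, an ER protein that works with BiP co-chaperones, had -0.51 ± 0.11 (edgeR adjusted p = 0.003) and went from 68.9 ± 7.12 to 64.8 ± 3.69 CPM in WT and from 44.7 ± 3.93 to 29.5 ± 0.907 CPM in KO-labelled samples (mean ± SD, n = 4). With summed pairs these calls ended, at an edgeR adjusted p of 0.0878 for Dnajb9, 0.0775 for Creld2, 0.111 for Hyou1 and 0.219 for Sdf2l1.

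ER chaperone genes shared the sign of the XBP1s list, while 1 of 13 sensors and factors was called. Among 16 ER chaperones and oxidoreductases 9 were below 0 and none above (median -0.26), where 5.84% of all genes tested were below 0. With single libraries left out 5 to 9 were below. The count was lowest without KO-labelled replicate 1 or 2 with LPS or untreated KO-labelled replicate 4. It was as low without WT replicate 3 or 4 with LPS or untreated WT replicate 1 or 2. Hspa5, which encodes BiP, rose in both genotypes from 919 ± 51.1 to 2064 ± 116 CPM in WT and from 974 ± 82.7 to 1731 ± 178 CPM in KO-labelled samples (mean ± SD, n = 4) (interaction -0.34 ± 0.10, edgeR adjusted p = 0.0307). The Hspa5 call ended on leaving out certain single libraries (edgeR adjusted p up to 0.074). The disulfide isomerase genes Pdia3 (-0.30 ± 0.07) and Txndc5 (-0.32 ± 0.09) were also called, and Txndc5 rose with LPS in WT (0.38 ± 0.06) while its change in KO-labelled samples did not pass the test (0.06 ± 0.06, edgeR adjusted p = 0.428). Of 13 ER stress sensors and factors only Atf6 was called (-0.20 ± 0.06, edgeR adjusted p = 0.0377), and 7 had an unadjusted p under 0.05; DESeq2 called 3 below 0, single libraries left out gave 0 to 3, and the Atf6 call ended without any 1 of 10 libraries. Xbp1 itself, whose splicing these gene counts do not show, had -0.08 ± 0.07 (edgeR adjusted p = 0.473) and Ern1 had 0.16 ± 0.07 (edgeR adjusted p = 0.154).

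Of 26 targets of the PERK and ATF4 branch, which controls amino acid supply under stress, 2 were above and 4 below 0 (median -0.08). Among all genes tested 4.61% were above and 5.84% below 0. Leaving out single libraries gave 0 to 2 members above and 1 to 5 below. Asns, asparagine synthetase, had 0.33 ± 0.10 and the lipoprotein receptor gene Vldlr 0.67 ± 0.21, while the amino acid transporter subunit gene Slc3a2 had -0.39 ± 0.08 and the stress factor gene Nupr1 -0.36 ± 0.10. The calls ended on leaving out any 1 of 9 libraries for Asns, 11 for Vldlr and 3 for Nupr1. Of 12 RNAs known to be cut by IRE1, edgeR called none, DESeq2 called 1 lower, and 2 had an unadjusted p under 0.05. Their smallest p-values belonged to Ergic3, at -0.16 ± 0.06 (edgeR adjusted p = 0.0927), and Tapbp, at -0.24 ± 0.09 (edgeR adjusted p = 0.0873).

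**Figure D2:**
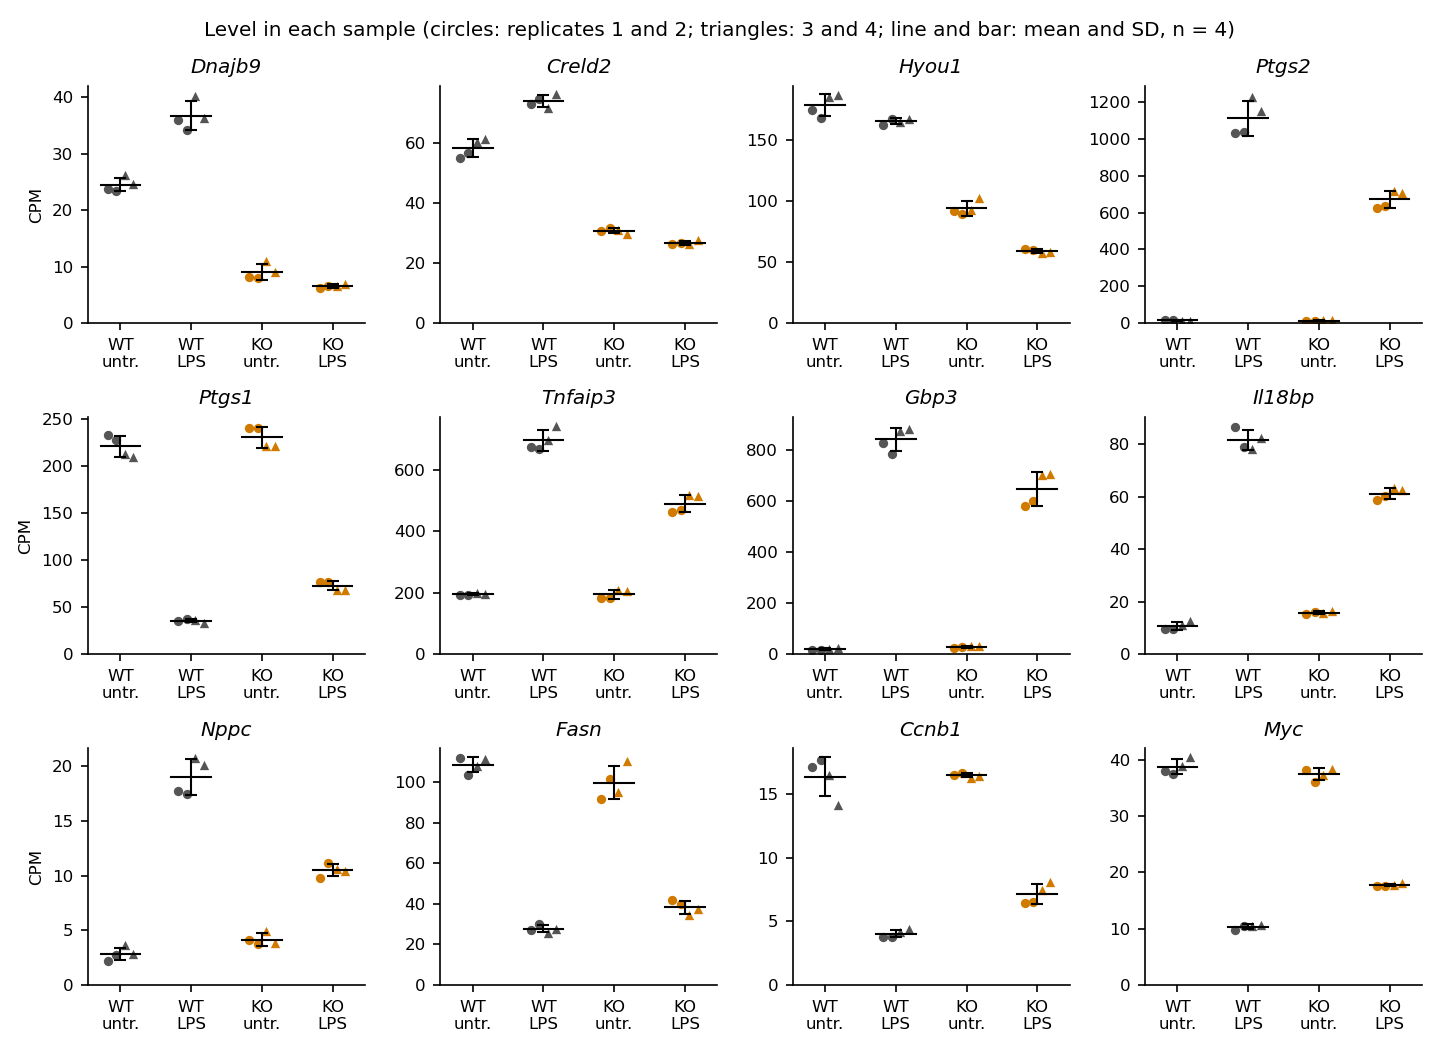
CPM of 12 genes in each of the 16 samples, with KO standing for KO-labelled; circles are replicates 1 and 2, triangles replicates 3 and 4, and the line and bar are the mean and SD of 4 samples. Dnajb9 and Creld2 rise with LPS in WT and fall in KO-labelled samples, Ptgs2 and Gbp3 reach lower levels with LPS in KO-labelled samples, and Ptgs1, Fasn, Ccnb1 and Myc keep higher levels there.

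Both cyclooxygenase genes of prostaglandin synthesis were called, with opposite signs, while most other genes of the list were not. Cyclooxygenases convert arachidonic acid, released by phospholipase A2 (Pla2g4a), into prostaglandin H2, which Ptges turns into prostaglandin E2 and Tbxas1 into thromboxane A2. LPS lowered Ptgs1, the constitutive cyclooxygenase, less under the KO label, and it raised the inducible Ptgs2 less. Of 14 tested genes in the list of prostanoid synthesis and transport, 2 were above 0 (Ptgs1 and Tbxas1) and 1 below (Ptgs2), with a median of -0.11. The shares over all genes tested were 4.61% above and 5.84% below 0. Leaving out single libraries gave 1 to 2 members on each side.

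Ptgs1 (ENSMUSG00000047250, chromosome 2, 36230426 to 36252272, plus strand) measured 233, 228, 213 and 209.9 CPM in untreated WT samples and 34.9, 37.1, 35.8 and 33.2 CPM in WT samples with LPS. In KO-labelled samples Ptgs1 stood at 241, 240.5, 221 and 221 CPM untreated and 77.2, 77.1, 68.4 and 68.7 CPM with LPS. All KO-labelled samples with LPS were above all WT samples with LPS, while the untreated groups overlapped. It fell 6.28-fold in WT and 3.17-fold in KO-labelled samples, an interaction of 0.99 ± 0.09 (edgeR adjusted p = 5.81e-07), with 1.04 in replicates 1 and 2 and 0.92 in replicates 3 and 4. With summed pairs the adjusted p was 0.0534 by edgeR. Ptgs2 (ENSMUSG00000032487, chromosome 1, 150100031 to 150108227, plus strand) measured 16.3, 15.5, 13.7 and 11.5 CPM in untreated WT samples and 1032, 1039, 1227 and 1154 CPM in WT samples with LPS. In KO-labelled samples Ptgs2 stood at 12.2, 11.1, 16.9 and 14.3 CPM untreated and 626, 637, 714 and 708 CPM with LPS. LPS raised it 78.3-fold in WT and 49.4-fold in KO-labelled samples, and the groups with LPS did not overlap. The interaction was -0.67 ± 0.15 (edgeR adjusted p = 0.0054), but it differed in size between the replicate pairs, with -0.27 in replicates 1 and 2 and -1.06 in replicates 3 and 4, and with summed pairs the call ended (edgeR adjusted p = 0.254).

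Ptges rose from 14.4 ± 1.59 to 111 ± 4.1 CPM in WT and from 11.2 ± 0.508 to 76.5 ± 0.995 CPM in KO-labelled samples (mean ± SD, n = 4), and its interaction did not pass the test (-0.17 ± 0.10, edgeR adjusted p = 0.302). Its level with LPS was nevertheless lower in KO-labelled samples (-0.53 ± 0.07, edgeR adjusted p = 1.44e-06), as it was without treatment (-0.36 ± 0.08, edgeR adjusted p = 0.00268). Pla2g4a had an interaction of -0.23 ± 0.08 (edgeR adjusted p = 0.0736). Tbxas1, at 0.18 ± 0.06 (edgeR adjusted p = 0.0365), fell from 217 ± 2.73 to 87.9 ± 3.27 CPM in WT and from 218 ± 3.2 to 100.2 ± 6.68 CPM in KO-labelled samples (mean ± SD, n = 4). Its call ended on leaving out certain single libraries (edgeR adjusted p up to 0.103). Its gene overlaps Hipk2 on the other strand, as others named below overlap a neighbour (Il27 with Apobr, Dusp1 with Ergic1, Il18bp with Numa1, Myd88 with Acaa1a, Snai3 with Gm20388), and since it is not given whether counting used strand, reads of such pairs may not be separated.

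Several groups of inflammatory genes had smaller responses to LPS under the KO label. Of 27 tested cytokine genes 12 had an interaction below 0 and none above (median -0.45), and of 20 chemokine genes 5 were below and none above (median -0.28), where 5.84% of all genes tested were below 0. Of 22 NF-κB genes and feedback regulators 14 were below and none above (median -0.24; 10 to 15 when single libraries were left out). The median change with LPS was 2.70 in WT and 2.45 in KO-labelled samples for the cytokines, 2.38 and 2.10 for the chemokines, and 1.58 and 1.31 for the NF-κB list. With summed pairs none of these members was called, and DESeq2 called 13, 6 and 14 lower.

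Tnfsf15, which encodes the cytokine TL1A, measured 28.1, 25.7, 42.5 and 40.2 CPM in untreated WT samples and 202, 203, 245 and 237 CPM in WT samples with LPS. In KO-labelled samples Tnfsf15 stood at 37.1, 37.3, 64.8 and 65.6 CPM untreated and 139.8, 139, 167 and 171 CPM with LPS. Replicates 3 and 4 were above replicates 1 and 2 in all 4 groups, and the interaction of -1.11 ± 0.25 (edgeR adjusted p = 0.00519) was made up of -1.004 in replicates 1 and 2 and -1.18 in replicates 3 and 4. Il27, a subunit of interleukin 27, rose 69.8-fold in WT and 39.3-fold in KO-labelled samples (-0.83 ± 0.23, edgeR adjusted p = 0.0209), with 79.7 to 105 and 44.7 to 50 CPM with LPS. The Il27 call ended without untreated KO-labelled replicate 1 (edgeR adjusted p = 0.0662). The alarmin gene Il33 had -0.83 ± 0.25 and Edn1, which encodes the precursor of endothelin 1, -0.76 ± 0.23; these calls ended on leaving out any 1 of 8 libraries for Il33 and 9 for Edn1.

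Ccl3, an inflammatory chemokine, measured 544, 577, 589.5 and 619 CPM in untreated WT samples and 1552, 1604, 1866 and 1969 CPM in WT samples with LPS. In KO-labelled samples Ccl3 stood at 533, 501, 621 and 588 CPM untreated and 965, 991, 1168 and 1137 CPM with LPS. The 2 groups with LPS did not overlap, and the interaction was -0.66 ± 0.11 (edgeR adjusted p = 0.000524), with -0.57 in replicates 1 and 2 and -0.74 in replicates 3 and 4. Its neighbour Ccl4 had -0.55 ± 0.09 (edgeR adjusted p = 0.00057). Ccl5 rose 62.4-fold in WT and 44.2-fold in KO-labelled samples (-0.50 ± 0.13, edgeR adjusted p = 0.0139). Cxcl9, an interferon-γ-induced ligand of CXCR3, stood at 72.0 to 77.4 CPM in WT and 23 to 24.3 CPM in KO-labelled samples with LPS, from under 0.25 CPM in every untreated sample. Its interaction of -1.66 ± 0.53 (edgeR adjusted p = 0.0456) had a wide error from those few untreated counts, and the call ended on leaving out any 1 of 15 of the 16 libraries, with adjusted p up to 0.136.

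Tnfaip3, which encodes the NF-κB inhibitor A20, measured 193, 192, 199 and 196 CPM in untreated WT samples and 672, 667, 698 and 743 CPM in WT samples with LPS. In KO-labelled samples Tnfaip3 stood at 182, 182, 207 and 206 CPM untreated and 461, 468, 516 and 512 CPM with LPS. It rose 3.56-fold in WT and 2.52-fold in KO-labelled samples (-0.50 ± 0.07, edgeR adjusted p = 0.000193). Dusp1, a phosphatase of MAP kinases, rose from 20.5 ± 1.91 to 67.2 ± 4.78 CPM in WT and from 20.4 ± 1.67 to 42 ± 1.02 CPM in KO-labelled samples (mean ± SD, n = 4) (-0.67 ± 0.11, edgeR adjusted p = 0.000642). Tnip3, an A20-binding protein, had -0.57 ± 0.09, and Socs1, an inhibitor of JAK kinases, -0.65 ± 0.18. The Socs1 call ended without WT replicate 4 with LPS, whose 247 CPM stood above the 169 to 177 CPM of the other 3 (edgeR adjusted p = 0.054), and without untreated WT replicate 1 (edgeR adjusted p = 0.0501).

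Of 23 Toll-like receptor 4 pathway genes 1 was above and 5 below 0 (median -0.08), against 4.61% above and 5.84% below among all genes tested. Leaving out single libraries gave 1 to 6 below. Members below 0 included the co-receptor gene Cd14 (-0.36 ± 0.10), Ly96, which encodes MD-2 (-0.59 ± 0.18), and the adaptor gene Myd88 (-0.31 ± 0.10). Each of these calls ended on leaving out certain single libraries. The edgeR adjusted p then reached 0.106 for Ly96, 0.103 for Myd88 and 0.053 for Cd14. Tlr1, a receptor that pairs with TLR2 for bacterial lipopeptides, was among the 10 genes with the smallest p. Tlr1 measured 7.68, 7.11, 7.5 and 7.36 CPM in untreated WT samples and 56.4, 55.6, 55.3 and 54.9 CPM in WT samples with LPS. In KO-labelled samples Tlr1 stood at 8.62, 9.42, 8.59 and 8.63 CPM untreated and 40.8, 42.6, 43.6 and 44.8 CPM with LPS. It rose 7.49-fold in WT and 4.87-fold in KO-labelled samples (-0.62 ± 0.06, edgeR adjusted p = 3.04e-06; summed pairs, edgeR adjusted p = 0.0534).

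Nearly all genes of both interferon-inducible lists had an interaction below 0, and calls were made in one of the lists. Guanylate-binding proteins and immunity-related GTPases, which attack vacuoles that hold pathogens, had a median of -0.51, the lowest of the pathway lists, with 6 of 13 called below 0 and the other 7 also negative. The share called below 0 over all genes tested was 5.84%. Gbp3 (ENSMUSG00000028268, chromosome 3, 142560026 to 142573209, plus strand) measured 15.6, 16.2, 20.8 and 23.1 CPM in untreated WT samples and 828, 786, 875 and 882 CPM in WT samples with LPS. In KO-labelled samples Gbp3 stood at 25.1, 26.1, 32.2 and 33.2 CPM untreated and 579.9, 600.2, 704 and 709 CPM with LPS. Untreated KO-labelled samples were above all untreated WT samples, and with LPS they were below all WT samples. It rose 44.5-fold in WT and 22.2-fold in KO-labelled samples (-1.001 ± 0.16, edgeR adjusted p = 0.000462), with -1.14 in replicates 1 and 2 and -0.89 in replicates 3 and 4. Gbp2 had -0.80 ± 0.16 (edgeR adjusted p = 0.00271), Gbp7 -0.55 ± 0.12 and Gbp4, which has near-identical copies, -0.68 ± 0.15. Untreated, Gbp2 was higher in KO-labelled samples (0.59 ± 0.12, edgeR adjusted p = 0.000939). With LPS its genotype difference did not pass the test (-0.21 ± 0.11, edgeR adjusted p = 0.153). Gbp4 overlaps Gbp8 and Gbp9 on the same strand, so reads of these genes may not be separated. Of 30 interferon-stimulated genes in the separate list, edgeR called none in the interaction, while 8 had an unadjusted p under 0.05 and DESeq2 called 2 below 0. In that list 29 of 30 were negative, with a median of -0.31 and changes with LPS of 4.46 in WT and 4.05 in KO-labelled samples, and up to 6 were called when 1 library was left out. Their smallest p-values belonged to the RNA sensor gene Ifih1 (-0.43 ± 0.14, edgeR adjusted p = 0.056) and Bst2, which encodes tetherin (-0.28 ± 0.10, edgeR adjusted p = 0.0736).

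Antigen presentation genes of class I followed the same sign. Of 16 genes 10 were below 0 and none above (median -0.29), where 5.84% of all genes tested were below 0. Psmb10, a subunit of the immunoproteasome, measured 55.6, 56.1, 60.2 and 63.3 CPM in untreated WT samples and 358, 330, 337 and 363 CPM in WT samples with LPS. In KO-labelled samples Psmb10 stood at 62.5, 65.4, 61.5 and 66.9 CPM untreated and 245, 257, 267 and 265 CPM with LPS. It rose 5.89-fold in WT and 4.03-fold in KO-labelled samples (-0.55 ± 0.08, edgeR adjusted p = 0.000193). The class I heavy chain gene H2-D1, one of a family of similar genes, had -0.39 ± 0.09 and the non-classical H2-T23 -0.40 ± 0.08. Of 15 class II genes 4 were below 0 (median -0.16), with the lysosomal reductase gene Ifi30 at -0.47 ± 0.11 and H2-Ab1 at -0.21 ± 0.06. Without WT replicate 4 with LPS 2 were called, and H2-Ab1 was not (edgeR adjusted p = 0.0504). The median difference of KO-labelled minus WT in the class II list was 0.22 untreated and 0.10 with LPS, so its level with LPS was not lower. With LPS H2-Ab1 was higher in KO-labelled samples (0.16 ± 0.04, edgeR adjusted p = 0.00241) and Ifi30 lower (-0.26 ± 0.08, edgeR adjusted p = 0.0135). For class I the median difference with LPS was -0.28.

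Of 19 tested genes of DC maturation 7 were below and 1 above 0 (median -0.25), against 5.84% below and 4.61% above among all genes tested. Cd40, the receptor by which T cells license DCs, rose 98.1-fold in WT and 63-fold in KO-labelled samples (-0.64 ± 0.13, edgeR adjusted p = 0.00254), to 615 to 704 and 378 to 462 CPM. Cd200, a ligand that restrains myeloid cells, had -0.57 ± 0.10 (edgeR adjusted p = 0.000841). Fscn1, the actin bundler of mature DC dendrites, was the 1 member above 0 (0.46 ± 0.10, edgeR adjusted p = 0.00525). It started lower in untreated KO-labelled samples and rose from 56 ± 4.54 to 378 ± 50.9 CPM in WT and from 34.2 ± 1.66 to 317 ± 17.4 CPM in KO-labelled samples (mean ± SD, n = 4).

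Among the 10 genes with the smallest p were further genes with an interaction below 0. Il18bp, the secreted antagonist of interleukin 18 (ENSMUSG00000070427, chromosome 7, 102014885 to 102018690, minus strand), was 1 of the 5 genes also called with summed pairs (edgeR adjusted p = 0.0464). Il18bp measured 9.4, 9.74, 11 and 12.6 CPM in untreated WT samples and 86.6, 79.2, 78.4 and 82.6 CPM in WT samples with LPS. In KO-labelled samples Il18bp stood at 15.1, 15.9, 15.8 and 16.3 CPM untreated and 58.7, 60.3, 63.3 and 62.8 CPM with LPS. The untreated KO-labelled samples were above the untreated WT samples, and with LPS they were below. Its interaction was -0.97 ± 0.10 (edgeR adjusted p = 3.04e-06). Nppc, the precursor of C-type natriuretic peptide (ENSMUSG00000026241, chromosome 1, 86666291 to 86670571, minus strand), measured 2.23, 2.79, 3.62 and 2.8 CPM in untreated WT samples and 17.8, 17.5, 20.8 and 20.1 CPM in WT samples with LPS. In KO-labelled samples Nppc stood at 4.12, 3.72, 4.97 and 3.82 CPM untreated and 9.83, 11.1, 10.6 and 10.4 CPM with LPS. It rose 6.65-fold in WT and 2.53-fold in KO-labelled samples (-1.39 ± 0.17, edgeR adjusted p = 2.16e-05; -1.38 in replicates 1 and 2 and -1.42 in replicates 3 and 4; summed pairs, edgeR adjusted p = 0.0461). Cyp26b1, an enzyme that breaks down retinoic acid, measured 4.69, 4.34, 5.56 and 4.92 CPM in untreated WT samples and 6.98, 6.45, 5.75 and 6.23 CPM in WT samples with LPS. In KO-labelled samples Cyp26b1 stood at 11.3, 10.9, 11.1 and 12.3 CPM untreated and 7.75, 7.01, 7.74 and 6.87 CPM with LPS. Cyp26b1 rose in WT and fell in KO-labelled samples, from an untreated level that was higher in all 4 KO-labelled samples (-1.01 ± 0.12, edgeR adjusted p = 2.26e-05; summed pairs, edgeR adjusted p = 0.0461).

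Rcl1, which works in ribosomal RNA processing, rose from 10.6 ± 0.224 to 44.9 ± 2.56 CPM in WT and from 10.3 ± 0.587 to 26.3 ± 1.85 CPM in KO-labelled samples (mean ± SD, n = 4) (-0.72 ± 0.08, edgeR adjusted p = 1.52e-05). Calhm6, a channel subunit of immune cells, had the most negative interaction of the named genes (-1.88 ± 0.40, edgeR adjusted p = 0.0039), with 29.0 to 36.0 CPM in WT and 13.3 to 16.4 CPM in KO-labelled samples with LPS and at most 0.28 CPM in any untreated sample. The collagen gene Col5a3 had -1.52 ± 0.35 (edgeR adjusted p = 0.00714), also from untreated levels of at most 1.24 CPM. Ch25h, which makes 25-hydroxycholesterol, rose 22.6-fold in WT and 10.8-fold in KO-labelled samples (-1.07 ± 0.28, edgeR adjusted p = 0.0155; -1.44 in replicates 1 and 2 and -0.80 in replicates 3 and 4). Of 21 inflammasome and cell death genes 8 were below 0 and none above (median -0.10), where 5.84% of all genes tested were below 0. The 8 included the caspase genes Casp4 (-0.58 ± 0.12) and Casp1 (-0.46 ± 0.12), the necroptosis effector gene Mlkl (-0.45 ± 0.09) and the sensor gene Nlrp3 (-0.38 ± 0.09). Of 15 NRF2 antioxidant genes 5 were below 0 (median -0.27), among them the haem oxygenase gene Hmox1 (-0.41 ± 0.07) and Srxn1 (-0.55 ± 0.15). Among 11 genes of arginine, nitric oxide and itaconate metabolism 3 were below 0: Acod1, which makes itaconate (-0.46 ± 0.12), Gch1 (-0.43 ± 0.09) and the inducible nitric oxide synthase gene Nos2 (-0.36 ± 0.11). The Nos2 call ended on leaving out certain single libraries (edgeR adjusted p up to 0.0897).

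**Figure D3:**
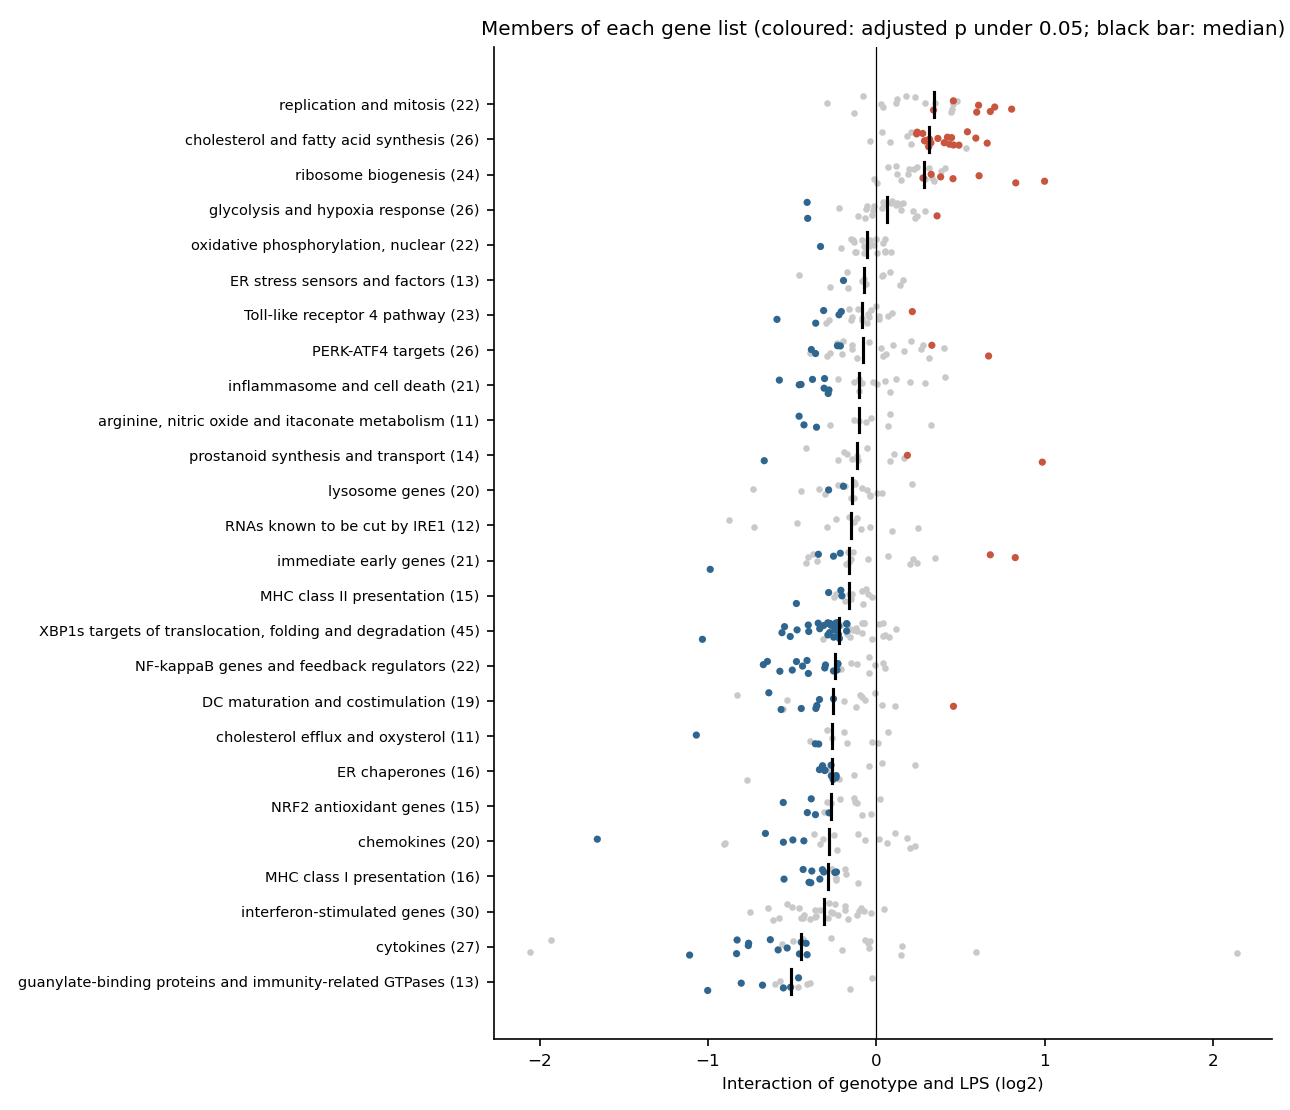
Interaction on the log2 scale (horizontal axis), lists of cell type markers left out, for every tested member of each pathway list and of ribosome biogenesis (rows, with the number tested), coloured where the adjusted p is under 0.05, with the list median as a black bar and the lists ordered by it. The medians of the lists drawn run from -0.51 for guanylate-binding proteins and immunity-related GTPases to 0.34 for replication and mitosis; ribosome biogenesis was added after the data were seen.

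Of 26 synthesis genes of cholesterol and fatty acids, which SREBP factors drive, 18 had an interaction above 0 and none below (median 0.31), where 4.61% of all genes were above 0. The list's median change with LPS was -0.50 in WT and -0.18 in KO-labelled samples. DESeq2 called 20 above 0, single libraries left out gave 17 to 20, and summed pairs gave none.

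Fasn, fatty acid synthase, measured 112, 104, 108 and 111 CPM in untreated WT samples and 27.3, 29.96, 25.8 and 27.6 CPM in WT samples with LPS. In KO-labelled samples Fasn stood at 91.9, 101, 95.2 and 111 CPM untreated and 41.8, 39.7, 34.4 and 37.4 CPM with LPS. The untreated groups overlapped, and all KO-labelled samples with LPS were above all WT samples with LPS. It fell 3.92-fold in WT and 2.6-fold in KO-labelled samples (0.59 ± 0.10, edgeR adjusted p = 0.000587). Dhcr7, which catalyses the last step to cholesterol in one branch of the pathway, fell 8.33-fold in WT and 5.28-fold in KO-labelled samples (0.66 ± 0.14, edgeR adjusted p = 0.00388). The lanosterol synthase gene Lss had 0.54 ± 0.10 (edgeR adjusted p = 0.000935) and the desaturase gene Scd2 0.49 ± 0.08 (edgeR adjusted p = 0.000333). Of 11 genes of cholesterol efflux and oxysterols 3 were below 0 and none above, against 5.84% of all genes tested below 0. The 3 included Ch25h and the cholesterol transporter gene Npc2 (-0.34 ± 0.08).

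Of 22 genes of replication and mitosis 7 were above 0 and none below (median 0.34), against 4.61% of all genes tested above 0. In this list 16 had an unadjusted p under 0.05. Their median change with LPS was -1.42 in WT and -1.04 in KO-labelled samples. Ccnb1, cyclin B1, measured 17.1, 17.7, 16.4 and 14.2 CPM in untreated WT samples and 3.77, 3.8, 4.19 and 4.38 CPM in WT samples with LPS. In KO-labelled samples Ccnb1 stood at 16.5, 16.6, 16.3 and 16.4 CPM untreated and 6.44, 6.49, 7.44 and 8.09 CPM with LPS. It fell 4.04-fold in WT and 2.31-fold in KO-labelled samples (0.80 ± 0.13, edgeR adjusted p = 0.000386). The spindle checkpoint kinase gene Bub1 had 0.70 ± 0.10 (edgeR adjusted p = 0.000193), the topoisomerase gene Top2a 0.61 ± 0.14, the kinase gene Plk1 0.68 ± 0.18 and Cenpf, which encodes a kinetochore protein and lies outside that list, 1.15 ± 0.18.

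Myc, a transcription factor of growth and proliferation (ENSMUSG00000022346, chromosome 15, 61985391 to 61990374, plus strand), measured 38, 37.5, 38.9 and 40.5 CPM in untreated WT samples and 9.7, 10.5, 10.5 and 10.7 CPM in WT samples with LPS. In KO-labelled samples Myc stood at 38.2, 36.1, 37.2 and 38.3 CPM untreated and 17.7, 17.6, 17.7 and 18.1 CPM with LPS. The untreated groups overlapped, and all KO-labelled samples with LPS were above all WT samples with LPS. Myc fell 3.73-fold in WT and 2.11-fold in KO-labelled samples (0.83 ± 0.06, edgeR adjusted p = 1.49e-08), with 0.82 in replicates 1 and 2 and 0.82 in replicates 3 and 4 and 0.82 with summed pairs (edgeR adjusted p = 0.0125). Of the 21 immediate early genes, a list that holds Myc, 2 were above and 4 below 0 (median -0.16), against 4.61% and 5.84% of all genes tested. Leaving out single libraries gave 1 to 2 above and 2 to 5 below. The transcription factor gene Egr3 had 0.68 ± 0.19 and the phosphatase gene Dusp2 -0.99 ± 0.19.

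The smallest p of all genes belonged to Commd10 (ENSMUSG00000042705), a member of the COMM domain family of endosomal sorting, which measured 24.3, 25.7, 26.6 and 25.4 CPM in untreated WT samples and 14.3, 15.2, 14.6 and 14.4 CPM in WT samples with LPS. In KO-labelled samples Commd10 stood at 35.9, 32.9, 33.6 and 32.5 CPM untreated and 44.5, 45.4, 49.8 and 49.8 CPM with LPS. It fell in WT and rose in KO-labelled samples, and no 2 of the 4 groups overlapped. The interaction was 1.29 ± 0.06 (edgeR adjusted p = 2.1e-12), with 1.14 in replicates 1 and 2 and 1.43 in replicates 3 and 4, and it held with summed pairs (edgeR adjusted p = 0.000393). Ankrd63, an ankyrin repeat gene, fell 18.8-fold in WT and 7.17-fold in KO-labelled samples (1.39 ± 0.27, edgeR adjusted p = 0.00198). Its levels with LPS were low, at 0.35 to 0.54 CPM in WT and 1.03 to 1.5 CPM in KO-labelled samples. St6gal1, a sialyltransferase, measured 60.7, 60.1, 48.2 and 44.1 CPM in untreated WT samples and 6.47, 7.25, 4.87 and 6.12 CPM in WT samples with LPS. In KO-labelled samples St6gal1 stood at 81.2, 82.7, 75.2 and 72.8 CPM untreated and 22.8, 23.4, 18.6 and 20.3 CPM with LPS. KO-labelled samples were above all WT samples in both conditions, and the interaction was 1.24 ± 0.23 (edgeR adjusted p = 0.00133). Snai3, a zinc finger repressor, had 1.32 ± 0.24 (edgeR adjusted p = 0.00115).

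**Figure D4:**
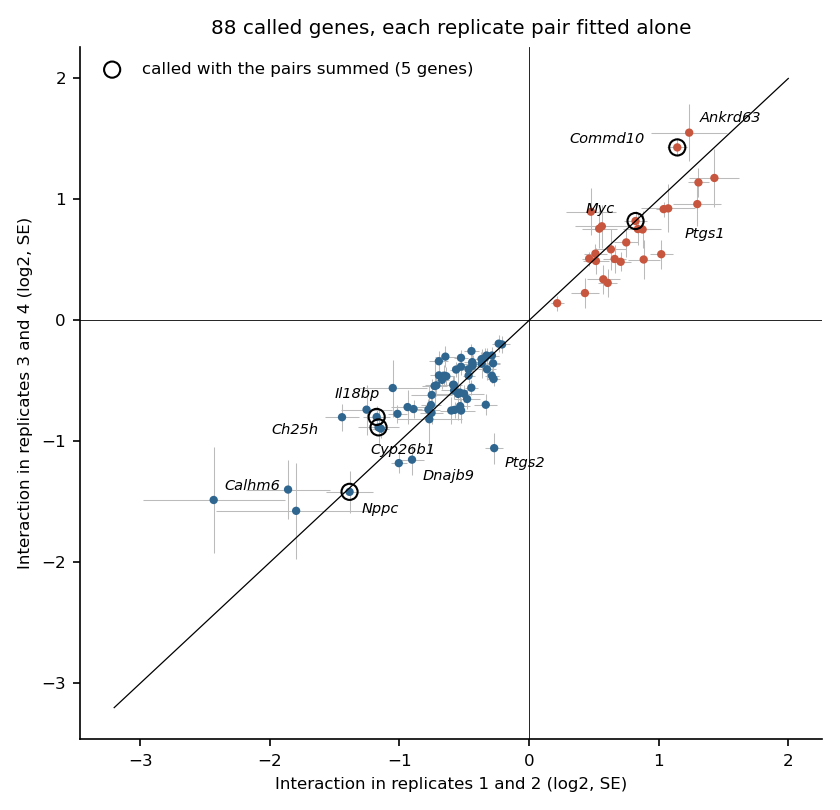
Interaction of the 88 called genes named here, computed from replicates 1 and 2 alone (horizontal axis) and from replicates 3 and 4 alone (vertical axis), on the log2 scale with SE; the line marks equal values. Circled are the 5 genes called with summed pairs (Commd10, Myc, Nppc, Il18bp and Cyp26b1), and Ptgs2 lies off the line at -0.27 and -1.06.

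Of the 1482 called genes, 1480 had a value in both replicate pairs and all 1480 had the sign of the full fit in each pair, a count that the choice of called genes partly fixes. Fitted alone, both pairs called 771 of them.

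Markers of other cell types were checked beside these results. Eosinophil markers, of which 9 of 10 were tested, summed to 850 to 1133 CPM in untreated WT and 1006 to 1080 CPM in WT samples with LPS, but to 50.4 to 60.1 and 48.1 to 57.2 CPM in the KO-labelled groups. The difference in level was thus present with and without LPS, and in the interaction only Alox15 was called (-0.77 ± 0.22). Of 9 tested mast cell and basophil markers 2 were above 0, against 4.61% of all genes tested. These were Hdc, the histamine-forming enzyme (0.82 ± 0.19, edgeR adjusted p = 0.0058), and Gata2 (0.51 ± 0.09). With LPS Gata2 went from 15.2 ± 1.38 to 12.6 ± 0.849 CPM in WT and from 7.6 ± 0.489 to 8.98 ± 0.546 CPM in KO-labelled samples (mean ± SD, n = 4). Its level with LPS was thus still lower in KO-labelled samples (-0.49 ± 0.07, edgeR adjusted p = 4.34e-06). The summed level of the list was 48.6 to 79.6 CPM in untreated WT, 253 to 275 CPM in WT with LPS, 42.2 to 53.9 CPM in untreated KO-labelled and 213 to 242 CPM in KO-labelled samples with LPS. Hdc made up most of the sum with LPS, at a mean of 215 CPM in WT and 167 CPM in KO-labelled samples, from 12.9 and 5.65 CPM untreated. The list's median change with LPS was -0.07 in WT and 0.72 in KO-labelled samples. Of the macrophage markers 7 of 13 were below 0 and none above (median -0.25), as for the inflammatory lists, against 5.84% of all genes tested below 0. Their summed level, most of it from Lyz2, was 16749 to 19604 CPM in untreated WT, 18028 to 19116 CPM in WT with LPS, 19563 to 20698 CPM in untreated KO-labelled and 17364 to 18975 CPM in KO-labelled samples with LPS. C1qa, a complement component made by macrophages, measured 82.8, 90.7, 102 and 107 CPM in untreated WT samples and 109, 96.9, 102 and 111 CPM in WT samples with LPS. In KO-labelled samples C1qa stood at 93.9, 90.1, 102 and 98.6 CPM untreated and 53.4, 54.7, 60.4 and 59.5 CPM with LPS. The level in KO-labelled samples with LPS was below all other samples, and the other 3 groups overlapped. Its interaction was -0.88 ± 0.13 (edgeR adjusted p = 0.000175), with C1qb at -0.56 ± 0.10, the Fc receptor gene Fcgr1 at -0.76 ± 0.19 and the phagocytosis receptor gene Mertk at -0.62 ± 0.12. Of 12 conventional DC markers 2 were below 0, among them Irf8 (-0.29 ± 0.06), and none above. None of 13 neutrophil markers passed in edgeR or in DESeq2, and 3 had an unadjusted p under 0.05. The T cell genes Cd3e, Cd3d, Cd3g and Trac held 21, 30, 10 and 3 counts over all 16 libraries. The part of these cells in the interaction was not tested. The 13 mitochondrially encoded genes listed as a check of RNA quality were not found among the genes counted, so that check could not be made.

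Compared with the corresponding interaction for zymosan, a yeast cell wall particle sensed by Dectin-1 and TLR2, the LPS interaction was larger for part of these genes. The zymosan interaction was called for 138 genes above and 120 below 0 (1.82%; 0.973% above and 0.846% below). The 2 interactions share the untreated samples, which cancel when one is subtracted from the other, leaving the genotype difference with LPS minus that with zymosan. This difference, a comparison added after the data were seen, was called for 90 genes above and 119 below 0 (1.47%). With summed pairs none was called by edgeR, where 869 genes had an unadjusted p under 0.05, and DESeq2 on the full samples called 167 and 299. Calls fell to 22 and 25 without WT replicate 4 with LPS, 38 and 49 without replicate 1 and 40 and 57 without replicate 3 of that group, and to 23 and 55 or 22 and 24 without KO-labelled replicate 1 or 2 with LPS.

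Commd10 had 0.71 ± 0.06 with zymosan, and the difference of 0.59 ± 0.07 (edgeR adjusted p = 5.66e-05) passed. So did Ptgs1 (0.46 ± 0.09 with zymosan; difference 0.53 ± 0.09, edgeR adjusted p = 0.0082), Hyou1 (difference -0.36 ± 0.07, edgeR adjusted p = 0.00981), Creld2 (-0.31 ± 0.06, edgeR adjusted p = 0.0104), Ccl3 (-0.58 ± 0.11, edgeR adjusted p = 0.00981), C1qa (-0.62 ± 0.13, edgeR adjusted p = 0.0217) and Scd2 (0.36 ± 0.08, edgeR adjusted p = 0.0227). For Myc (0.20 ± 0.07, edgeR adjusted p = 0.12), Dnajb9 (-0.30 ± 0.13, edgeR adjusted p = 0.234) and Ptgs2 (-0.40 ± 0.14, edgeR adjusted p = 0.133) the difference did not pass, which does not show that the stimuli acted alike. By list, 6 of 26 synthesis genes of cholesterol and fatty acids were called above 0 and none below, and 4 of 45 XBP1s targets, 4 of 13 macrophage markers and 4 of 15 class II genes were called below 0 and none above; among all genes 0.634% were above and 0.839% below.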

How the data were processed

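The authors deposited 1 table of counts per gene for 24 samples, keyed by Ensembl gene number. Bowtie2, RSEM 1.2.31, DESeq2 and the mm10 genome are named, per the submitters' processing notes, without their roles, and the deposited counts are whole numbers. Whether counting used strand is not given in the sources used here. Of 38887 genes, 96.6% were named from GENCODE M21 (GRCm38, the assembly behind mm10).

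Counts were tested here with edgeR 4.0.16 in R 4.3.3: TMM factors (0.88 to 1.19), filterByExpr, 6 group means over all 24 samples, the quasi-likelihood test (two-sided) and Benjamini-Hochberg adjustment over 14188 genes. The biological coefficient of variation was 0.0686. Alternatives were DESeq2 1.42.0, its size factors, no filter, only the 16 samples, each library left out, replicate blocks and replicate pairs. On simulated counts 71% of interactions of 0.5 and 93% of 1 on the log2 scale were called, with 0.0719% of unchanged genes. The simulated libraries were drawn independently, without the likeness within replicate pairs, and interactions were planted only in genes with higher counts. These rates therefore do not give the rate of false or missed calls in the real samples.

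The named genes are Ern1, Xbp1 and 4 prostaglandin genes, up to 4 called members of each list with the largest interaction (or, with none called, the 2 with the smallest p), the 12 most positive and 12 most negative called genes with at least 5 CPM in a group and 20 counts in every group, and the 10 with the smallest p; not all are printed. The promoters shown, the ribosome biogenesis list and the difference from zymosan were chosen after values were seen. The members and lists were chosen with earlier results of these data known.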

Additional observations from a re-analysis of the deposited data

Results flagged for a closer look

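The genotype by LPS interaction is itself a difference between groups, tested by edgeR's interaction contrast, and was called for 654 genes above and 828 below 0. The 10 genes with the smallest p were Commd10 at 1.29, Myc at 0.83, Ptgs1 at 0.99, Tlr1 at -0.62, Il18bp at -0.97, Creld2 at -0.55, Rcl1 at -0.72, Dnajb9 at -1.03, Nppc at -1.39 and Hyou1 at -0.56 on the log2 scale.

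Single samples that stood apart from the other 3 of their group by Dixon's test were sought in 384 groups (96 named genes in 4 groups), and 14, or 3.65%, were found, where chance gives about 1 in 20. Socs1 in WT replicate 4 with LPS, at 247 CPM, and Tapbp in untreated KO-labelled replicate 4, at 289 CPM, were higher than the rest of their groups. Among KO-labelled samples with LPS, Cd14 was low in replicate 1, at 471 CPM, and Myc, at 18.1 CPM, and Nop58, at 9.23 CPM, were high in replicate 4. Among untreated KO-labelled samples, Irf8 (99.6 CPM) and Rrp1b (14.4 CPM) were low in replicate 3, and Tlr1 (9.42 CPM) was high in replicate 2. In WT samples with LPS, Slc3a2 was low in replicate 3, at 603 CPM, and Rrp1b high in replicate 2, at 4.18 CPM. Untreated WT replicate 4 was high for Ergic3 (52.5 CPM) and Myd88 (90.7 CPM), and replicate 3 for Nop58 (29.5 CPM) and Pla2g4a (53.3 CPM).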

How the results depend on the processing

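The interaction counts of 654 above and 828 below 0 depended most on how the likeness within replicate pairs (1 with 2, 3 with 4) was treated. Summed pairs gave 2 and 3, a term for pairs 1081 and 1406, replicates 1 and 2 alone 1379 and 1596, and replicates 3 and 4 alone 653 and 991; the cause was not tested, beyond fewer samples in the summed and single-pair fits. The replicate block gave 1040 and 1356 when shared by all groups and 1073 and 1482 when nested in genotype. Of 24 same-numbered sample pairs only 2 correlated above 0.1 (-0.042 to 0.134), so the numbers were not taken to pair the samples. Between groups, samples both from replicates 1 and 2, or both from 3 and 4, correlated at -0.1 to 0.199. Samples of different replicate pairs correlated at -0.128 to 0.052. Whether a replicate pair was shared between groups was not tested. DESeq2 gave 749 and 1059, its size factors 616 and 861, no filter 525 and 682, the 16 samples alone 767 and 913, and single libraries left out 434 to 700 and 565 to 900. Of 499 tested members of the pathway lists, which were chosen with results known, 34 were above and 129 below 0. The shares over all genes tested were 4.61% above and 5.84% below 0. The member counts were 29 to 37 and 95 to 139 without single libraries, 53 above with the nested block and 52 above with the pair term. They were 55 and 197 from replicates 1 and 2 alone, and 1 and 0 with summed pairs. KO-labelled against WT gave 118 and 300 untreated and 841 and 1146 with LPS in summed pairs, against 611 and 800 and 2220 and 2585, and 1588 and 1663 untreated in replicates 1 and 2 alone; single libraries left out gave 439 to 639 and 626 to 797 untreated, and 1860 to 2253 and 2200 to 2641 with LPS. The LPS response gave 4957 to 5183 higher and 5463 to 5667 lower in WT and 4734 to 4910 and 5148 to 5335 in KO-labelled samples without single libraries, 5293 and 5255 in WT and 5061 and 4976 in KO-labelled samples by DESeq2, and 4708 and 5139 and 4324 and 4783 with summed pairs. The difference from the zymosan interaction, 90 and 119, was 167 and 299 by DESeq2, 394 and 609 or 417 and 688 with the shared or nested block, 437 and 640 with the pair term, 749 and 892 and 210 and 401 in the single pairs, 0 and 0 summed, and 22 to 98 and 24 to 127 without single libraries.

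No named gene reversed. Of 88 called named genes, none lost its call under DESeq2, its size factors, the blocks or the pair term, 4 did without the filter, 3 in the 16 samples alone, 83 with summed pairs, 4 and 12 in the single pairs, and 18 on leaving out at least 1 library (Alox15, Asns, Atf6, Cd14, Cxcl9, Edn1, Egr3, H2-Ab1, Hspa5, Il27, Il33, Ly96, Myd88, Nos2, Nupr1, Socs1, Tbxas1 and Vldlr, with adjusted p of 0.0501 to 0.136 by edgeR). Low counts limit Cxcl9, Calhm6 and Col5a3, whose untreated levels were at most 1.24 CPM. They also limit Ankrd63, at 0.35 to 0.54 CPM in WT samples with LPS, and Alox15, at 0.56 to 0.85 CPM in KO-labelled samples with LPS.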

Other observations

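A list of ribosome biogenesis genes was added after the data were seen. Its median change with LPS was -1.81 in WT and -1.50 in KO-labelled samples. The interaction was above 0 for 7 of 24 genes and below 0 for none (median 0.28), against 4.61% of all genes tested above 0. An unadjusted p under 0.05 was found for 16, and single libraries left out gave 7 to 10 above 0. Dkc1, the pseudouridine synthase dyskerin, which overlaps Mpp1 on the other strand, measured 13.6, 12.3, 13 and 13.3 CPM in untreated WT samples and 1.05, 1.31, 1.53 and 1.14 CPM in WT samples with LPS. In KO-labelled samples Dkc1 stood at 10.2, 11, 11.2 and 12.4 CPM untreated and 1.91, 2.22, 2.03 and 2.57 CPM with LPS. All KO-labelled samples with LPS were above all WT samples with LPS, and the interaction was 0.999 ± 0.15 (edgeR adjusted p = 0.00027). Rrp1b, a nucleolar protein gene, had 0.83 ± 0.15, the box C/D particle gene Nop58 0.61 ± 0.14 and the nucleolar GTPase gene Gnl3, which overlaps Pbrm1, 0.46 ± 0.11. Rcl1, a nucleolar gene outside this list, had an interaction of the other sign (-0.72 ± 0.08) and rose with LPS. With summed pairs no member was called (lowest edgeR adjusted p = 0.109).

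Calls in further lists are set beside the shares over all genes tested, 4.61% above and 5.84% below 0. Of 26 genes of glycolysis and the hypoxia response 1 was above and 2 below 0, of 20 lysosome genes 2 were below (7 by DESeq2, and 0 to 6 when single libraries were left out), and of 22 nuclear genes of oxidative phosphorylation 1 was below. Of 7 plasmacytoid DC markers 1 was above and 1 below 0, and their summed level was 979 to 1101 CPM in WT and 758 to 781 CPM in KO-labelled samples with LPS, from 166 to 199 CPM without treatment. Most of this sum was the interferon-stimulated gene Bst2, with means of 911 CPM in WT and 663 CPM in KO-labelled samples with LPS. Its untreated means were 127 and 112 CPM. Siglech, also listed, held 7 counts over the 16 libraries and was not tested, so the sum does not measure these cells. Of 8 monocyte markers 1 was above and 1 below 0, and of 9 stroma and endothelium markers 1 was below. None of 5 erythroid and megakaryocyte markers was called by edgeR, 2 had an unadjusted p under 0.05 and DESeq2 called 1 above 0; none of 6 tested T, B and NK cell markers was called by edgeR or DESeq2, and 1 had an unadjusted p under 0.05.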
